A study of Rattus norvegicus with 3 samples.

Results

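The 8 genes described here are regulators of bone and cartilage formation (Runx2, Sox9 and Sp7), an enzyme of mineral deposition (Alpl), proteins of mineralised matrix (Ibsp, Bglap and Dmp1) and a receptor phosphatase (Ptprz1). All 8 were found by symbol among the 22250 genes counted. They were selected on their UMIs (unique molecular identifiers, 1 per RNA molecule counted) in the DMD nuclei with Ibsp, or in a bone-like group of nuclei of these same libraries, so their values in those nuclei are a description and support nothing.

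Nuclei came from the heart apex of rats at 12 months of age, with 1 library for each genotype, WT, BMD and DMD. BMD rats carry an in-frame deletion of exons 45 to 47 of Dmd, the gene of dystrophin, made by CRISPR/Cas9 in Sprague Dawley oocytes, and DMD rats carry a deletion of exon 52. The deletions are present in every cell of the animal, and the number of animals behind each library is not given in the sources used here. Nuclei were stained with DAPI and sorted before 3′ single-nucleus RNA sequencing (snRNAseq), and the labels describe all nuclei of the heart. A single library stands for each genotype, so genotypes could not be tested against each other, and intervals, all at 95%, cover counting error only. WT counts were read from an aggregate made with another version of the counting software, so software and genotype cannot be told apart for WT. With BMD and DMD read from the same aggregate, the log2 ratios of Runx2 in fibroblast-like nuclei given below were 1.57 and 1.48.

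Barcodes with at least 500 UMIs were taken as nuclei, which gave 10069 in WT, 6898 in BMD and 8212 in DMD, with medians of 1200, 1468 and 1190 UMIs. Between 13 and 20 barcodes were shared by each pair of libraries, and 0 of these held Ibsp. Cardiomyocyte-like nuclei raised 9 of the 9 cardiomyocyte markers that were read. The class was named by these same markers, so this is not a separate check of the labelled tissue. Dmd counts in these nuclei were 16459, 20552 and 19421 UMIs per 1000000 UMIs (CPM). Values given in threes without names are in the order WT, BMD, DMD. The deletions take out a small part of the gene, so these counts do not check the labels. In summed nuclei, fewer cells of a type and less RNA per cell cannot be told apart.

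As background, bone is laid down by osteoblasts, whose commitment depends on the transcription factor RUNX2 and, after it, on SP7 (osterix). SOX9 is the master regulator of cartilage and is also present in cardiac fibroblasts and developing valves. Osteoblasts deposit collagen I, bone sialoprotein (IBSP) and osteocalcin (BGLAP), the phosphatase ALPL frees phosphate for mineral, and DMP1 is secreted as osteoblasts become osteocytes. In heart and vessel wall, the same programme is best known from calcification of valves and arteries. RUNX2 is also made by some lymphocytes and plasmacytoid dendritic cells, and PTPRZ1, a receptor of pleiotrophin, by glia.

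Ibsp and Bglap are known targets of RUNX2, whose core site is written ACCACA here. Promoter windows from 250 bases before to 50 bases after the annotated start were read from RefSeq (build GRCr8), and 5 of the 8 genes matched. They are printed for Runx2, the regulator, and for the 3 matrix genes. Their RNA was counted in a small cluster of DMD nuclei described below, but not all of it in the same nuclei. Alpl was also counted there, and its window was searched but is not printed. ACCACA or its reverse complement is in capitals.
Runx2, chr9:23664808-23665107 (+ strand): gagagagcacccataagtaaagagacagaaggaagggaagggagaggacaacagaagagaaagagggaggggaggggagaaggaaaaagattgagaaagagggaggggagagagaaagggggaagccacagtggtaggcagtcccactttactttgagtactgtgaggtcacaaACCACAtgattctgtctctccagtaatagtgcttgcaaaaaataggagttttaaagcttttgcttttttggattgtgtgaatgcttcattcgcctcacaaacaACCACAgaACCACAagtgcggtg
Ibsp, chr14:5757193-5757492 (- strand): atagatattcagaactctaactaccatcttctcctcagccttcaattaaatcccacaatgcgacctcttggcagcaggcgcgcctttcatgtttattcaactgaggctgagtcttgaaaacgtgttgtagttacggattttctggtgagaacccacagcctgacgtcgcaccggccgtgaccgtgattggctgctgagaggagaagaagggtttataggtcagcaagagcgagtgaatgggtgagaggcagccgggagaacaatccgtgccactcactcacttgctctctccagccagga
Bglap, chr2:176137269-176137568 (- strand): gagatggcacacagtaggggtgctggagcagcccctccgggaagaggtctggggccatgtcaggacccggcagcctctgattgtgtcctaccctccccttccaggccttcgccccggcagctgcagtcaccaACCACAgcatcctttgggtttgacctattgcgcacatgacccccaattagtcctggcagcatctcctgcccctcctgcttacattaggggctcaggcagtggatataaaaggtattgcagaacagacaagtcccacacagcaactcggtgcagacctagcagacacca
Dmp1, chr14:5840035-5840334 (- strand): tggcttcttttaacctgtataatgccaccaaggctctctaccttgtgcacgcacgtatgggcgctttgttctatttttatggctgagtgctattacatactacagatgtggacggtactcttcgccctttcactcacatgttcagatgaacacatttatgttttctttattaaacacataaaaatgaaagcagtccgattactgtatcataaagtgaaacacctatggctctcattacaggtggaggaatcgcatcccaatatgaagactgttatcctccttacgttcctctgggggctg
The Bglap window held ACCACA 1 time, 118 bases before the start, and the first of the 2 Runx2 windows in RefSeq held it 3 times. Ibsp, Dmp1, Alpl and the second Runx2 window held 0 copies. A window of this length holds the motif in 17.3% of all 33469 promoters. AACAAT, a core that SOX proteins bind, was also searched on both strands and was found 1 time, in the Ibsp window, against 11.7% of all promoters, with no base in common with ACCACA. These are matches of letters and not sites. The annotated starts were not checked, so a window may miss the promoter in use. The Dmp1 window ends in bases that read as a coding start (ATG) soon after the annotated start, so its count may not describe a promoter.

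Over all nuclei, the 8 genes fell into those counted in every library and those counted almost only in DMD. Runx2 had 919 UMIs in WT (53.4 CPM), 990 in BMD (65.9 CPM) and 1353 in DMD (97.1 CPM). Alpl had 486, 398 and 533 UMIs, or 28.2, 26.5 and 38.2 CPM. Sox9 was the member with its highest level in WT, at 18.1 CPM from 312 UMIs, against 11.5 CPM from 173 UMIs in BMD and 15.9 CPM from 222 UMIs in DMD. Dmp1 had 30, 44 and 64 UMIs and Ptprz1 had 34, 28 and 71.

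The 3 remaining members were at or near 0 outside DMD. Ibsp, the bone sialoprotein, had 0, 0 and 142 UMIs in WT, BMD and DMD, so its DMD level of 10.2 CPM was at least 58.5-fold higher than 3 counts in the WT library. Bglap, osteocalcin, had 0, 1 and 102 UMIs, at least 42.0-fold higher in DMD than in WT by the same floor. Of the 102 UMIs, however, 68 lay in 1 nucleus, and 23 were single UMIs outside the bone or cartilage-like cluster described below. Sp7 had 0, 0 and 3 UMIs, which was at the floor, and no fold is given for it.

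Nuclei with Ibsp were found only in the DMD library, where 54 of 8212 nuclei (0.658%, 0.494% to 0.857%) held at least 1 UMI and 21 held at least 2. None was found among 10069 WT nuclei, where 3 counts would be a share of 0.0298% and the exact upper limit is 0.0366%, or among 6898 BMD nuclei, where these are 0.0435% and 0.0535%. Clustering without the members placed 18 of the 54 in a cluster of 22 DMD nuclei. This cluster was called bone or cartilage-like because 5 markers of that list were raised in it (Scrublet marked 0 of the 22 as doublets). Of the 12 markers of the list, 8 had a UMI there, while Col9a2, Matn3, Omd and Cthrc1 were at 0. Its nuclei had a median of 1239.5 UMIs, close to that of all DMD nuclei. The cluster came from a second division, added after the data were seen, of the 1 cluster that held the most nuclei with Ibsp. Ibsp thus chose which cluster was divided, although the members were left out of the division itself. Without this division the 22 nuclei lay in a mixed cluster of 59 WT, 79 BMD and 286 DMD nuclei, which took the same name.

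Runx2 was found in 20 of these 22 nuclei, with 210 UMIs, a median of 8 and a highest value of 41 in 1 nucleus. Its level there was 5967 CPM (5187 to 6831), against 76.2 CPM in the other DMD nuclei without Ibsp. Ibsp gave 93 UMIs in 18 nuclei, with up to 23 in 1 nucleus. Runx2 and Ibsp were thus both counted in most nuclei of the cluster, and the intervals of their shares overlapped (70.8% to 98.9% and 59.7% to 94.8%).

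Bglap, the late osteoblast product, gave 79 UMIs in 5 of the 22 nuclei, but 68 of them lay in 1 nucleus. Dmp1, the osteocyte protein, gave 25 UMIs in 5 nuclei, with 10, 7 and 6 UMIs in the 3 highest. Bglap and Dmp1 shared 1 nucleus of the cluster. Alpl had 29 UMIs in 9 nuclei and Ptprz1 had 40 UMIs in 10 nuclei, with no more than 15 in 1 nucleus.

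The other regulators were almost not counted in the cluster. Sp7 gave 2 UMIs, in 2 nuclei that both held Dmp1 and Ptprz1 as well. Sox9, the cartilage regulator, gave 1 UMI, and a level of Sox9 like that of fibroblasts would not be detectable at this depth. At least 3 members were found in 16 of the 22 nuclei, at least 4 in 9, and 6 members in 1 nucleus.

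**Figure D1:**
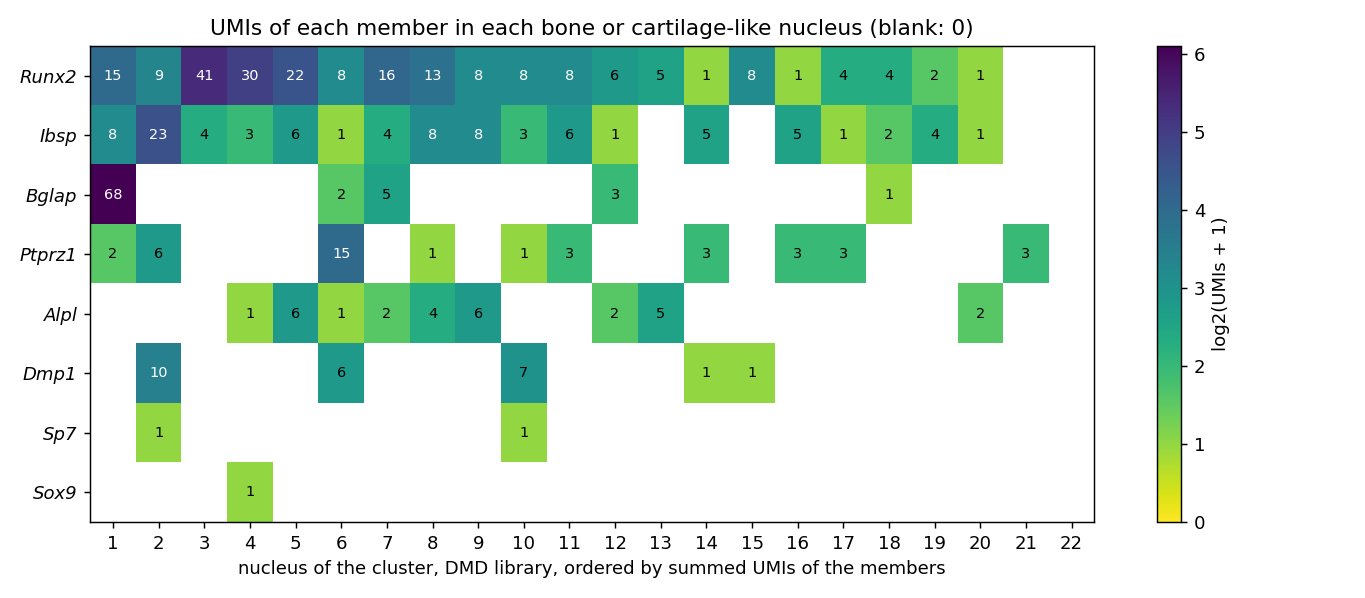
UMIs of each member (rows) in each of the 22 bone or cartilage-like nuclei of the DMD library (columns, ordered by the summed UMIs of the members), with the number printed in each cell and the colour on a log2 scale. Runx2 fills 20 columns and Ibsp 18, while 68 of the 79 Bglap UMIs sit in 1 column.

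The cluster held different parts of each gene's DMD counts. It gave 65.5% of the Ibsp UMIs of the library (57.1% to 73.3%), 77.5% of those of Bglap, 56.3% of those of Ptprz1 and 39.1% of those of Dmp1. It gave 15.5% of the Runx2 UMIs, 5.44% of those of Alpl and, from 1 UMI, 0.45% of those of Sox9 (0.01% to 2.48%). Of the UMIs of all genes in DMD nuclei, the cluster held 35194 of 13934896, so the Sox9 share is not read as low. When the 22 nuclei were left out, the log2 ratio of DMD over WT over all nuclei went from 0.86 to 0.62 (0.50 to 0.75) for Runx2 and from 1.37 to 0.18 (-0.58 to 0.92) for Ptprz1. For Dmp1 it went from 1.40 to 0.69 (-0.04 to 1.42). Outside the cluster, Ptprz1 and Dmp1 thus differed between DMD and WT by less than the counting error over all nuclei, while Runx2 differed by more.

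The 36 nuclei with Ibsp outside the cluster were spread over many classes, with 11 fibroblast-like, 8 endothelial-like, 4 cardiomyocyte-like, 3 T or B cell-like and 10 others. Bglap and Dmp1 had 0 UMIs in all 36. Of these nuclei, 29 held a single Ibsp UMI, and 3 of the 29 (10.3%) held Runx2, against 9.61% of DMD nuclei without Ibsp. Nuclei with a single Ibsp UMI outside the cluster thus held Runx2 about as often as any other DMD nucleus, although the interval of 2.19% to 27.4% is wide. Their Runx2 level was higher, at 456 CPM (289 to 684) against 76.2 CPM, but 21 of the 23 UMIs lay in 1 nucleus.

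The other 7 held at least 2 Ibsp UMIs, and 6 of the 7 held Runx2 (85.7%, 42.1% to 99.6%). Their Runx2 counts were 26, 19, 15, 3, 2, 1 and 0. Of the 7 nuclei, 2 were fibroblast-like and 2 endothelial-like. Another 2 lay in cluster 10, whose nuclei Scrublet mostly marked as doublets (78.1%), and 1 lay in cluster 6, led by mitochondrial genes. None of the 7 was itself marked as a doublet. The nucleus of cluster 10 with 19 Runx2 UMIs also had 18 UMIs of Mmp16, a membrane matrix protease.

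High Runx2 counts in single nuclei occurred in all libraries. Outside the cluster, at least 8 Runx2 UMIs were found in 7 WT, 2 BMD and 4 DMD nuclei. All 4 DMD nuclei also held Ibsp, and none was marked as a doublet. None of the WT or BMD nuclei held Ibsp, and 4 of the 7 WT nuclei were marked as doublets. The WT nuclei lay among macrophage-like nuclei, T or B cell-like nuclei, pericyte or smooth muscle-like nuclei and clusters 8 and 10.

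Free RNA was measured in the small barcodes. In DMD barcodes with at most 50 UMIs, Ibsp stood at 15.5 CPM and Bglap at 15.5 CPM, and in those with over 50 and under 500 UMIs at 25.8 and 19.0 CPM. The level in nuclei was 10.2 and 7.32 CPM, with intervals below those of the second size and overlapping those of the smallest barcodes. In WT and BMD barcodes of both sizes, both genes were at 0. Among the 113 DMD barcodes with over 50 and under 500 UMIs with Ibsp, 110 held a single UMI. RNA of the 2 genes was thus present outside nuclei in DMD, and a single UMI of either is not read as expression here.

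The free RNA expected in a class, from its share of UMIs and the smallest barcodes, was set beside the observed level. For Ibsp it was 1.01 CPM against 3.72 CPM observed (1.98 to 6.36) in fibroblast-like nuclei, and 1.64 against 6.69 CPM (3.66 to 11.2) in endothelial-like nuclei. In cardiomyocyte-like nuclei it was 0.71 against 1.01 CPM (0.28 to 2.59). Ibsp therefore lay above the expected free RNA in the first 2 classes and not beyond counting error in cardiomyocytes. In endothelial-like nuclei 8 of the 14 Ibsp UMIs lay in 2 nuclei. Without these, a removal made after the values were seen, the level was 2.87 CPM (1.05 to 6.25) and the interval held the expected 1.64 CPM. In fibroblast-like nuclei 2 nuclei held 4 of the 13 UMIs. The level without them was 2.58 CPM (1.18 to 4.89), and this interval lay above the expected 1.01 CPM. Barcodes with over 50 and under 500 UMIs gave higher expected levels, 1.68 CPM in fibroblast-like and 2.73 CPM in endothelial-like nuclei. Both intervals without the 2 nuclei held these levels. The smallest barcodes held 11 Ibsp UMIs, and the counting error of that number is not in the expected levels. Bglap, with 3 UMIs in fibroblast-like and 3 in cardiomyocyte-like nuclei, was within its interval of the expected level in both.

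**Figure D2:**
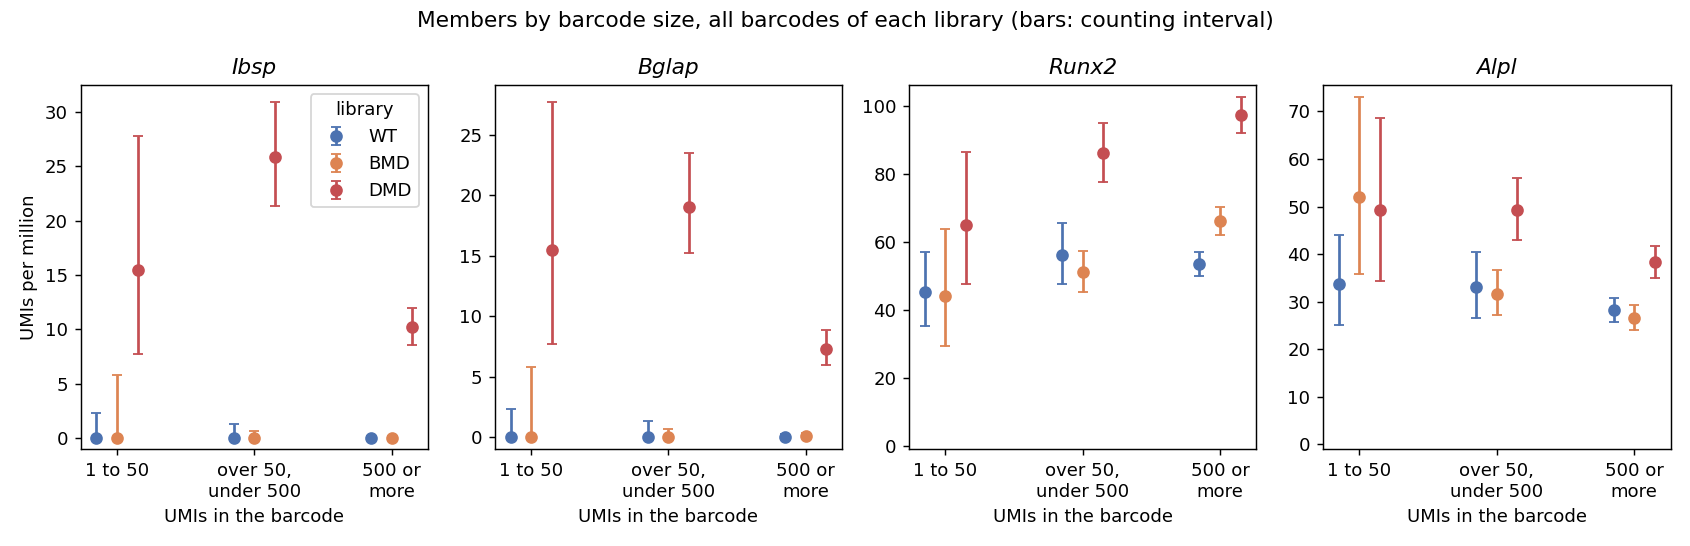
CPM of Ibsp, Bglap, Runx2 and Alpl (y axis, linear from 0) in all barcodes of each library by the number of UMIs in the barcode (x axis), with bars for the 95% counting interval. Ibsp and Bglap are at or near 0 in WT and BMD at every barcode size and higher in the DMD barcodes with over 50 and under 500 UMIs than in DMD nuclei.

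The 54 nuclei with Ibsp, pooled, also held counts of many other bone and cartilage genes, described here from lists of related genes. Ibsp defines these nuclei and the lists were chosen with earlier results of these data known, so the counts are a description. The 36 of them outside the cluster of 22 nuclei held few counts of some genes, with 1 of 41 Col2a1, 3 of 54 Col11a1 and 25 of 228 Spp1 UMIs. They held more of others, with 41 of 100 Sparc and 34 of 51 Bmpr2 UMIs. Of 17 further osteochondral regulators, 13 had a UMI in the 54 nuclei with Ibsp and 9 were at least 2-fold higher there than in all other nuclei by the ratio of CPM plus 5, which is used for all lists here. Of all 22250 genes, 10604 had a UMI in these nuclei and 7.24% were at least 2-fold higher. Mef2c, which drives chondrocyte growth as well as muscle genes, stood at 1651 against 557 CPM. Sox6, a cartilage partner of SOX9, was at 1026 against 746 CPM, which is under 2-fold. Among the 10 leading genes of these nuclei were Ibsp, Bglap, Col11a1, Mmp16, Col2a1, Ptprz1, Kcnma1, Crispld1 and Adamts18.

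Of 19 genes of bone matrix and mineralisation, 14 had a UMI and 9 were at least 2-fold higher. Col1a1, the main collagen of bone and scar, was at 5457 against 276 CPM, Spp1 (osteopontin) at 2339 against 96.3 CPM and Sparc (osteonectin) at 1026 against 357 CPM. Spp1 is also a macrophage gene, and most of its counts elsewhere were in macrophage-like nuclei (2077, 505 and 450 UMIs in WT, BMD and DMD). Of 19 cartilage matrix genes, 11 had a UMI and 9 were at least 2-fold higher. Some of the 9 rest on 1 to 4 UMIs, since 1 UMI in these nuclei (10.3 CPM) passes for a gene near 0 elsewhere. The same holds for some genes of the other lists. Col11a1 was at 554 against 1.71 CPM, Col2a1, the fibrillar collagen of cartilage, at 421 against 0.30 CPM and Col11a2 at 236 against 4.12 CPM. Bone and cartilage collagens were therefore counted in the same small set of nuclei, but these summed levels do not show them in the same nucleus. In the cluster of 22 nuclei, 217 of the 442 Col1a1 UMIs lay in 1 nucleus that held 0 UMIs of Col2a1 and Col11a1. Col2a1 was found in 7 nuclei of the cluster, and each of them also held Col1a1, but Col1a1 was found in 20 of the 22 nuclei. Col10a1, the collagen of hypertrophic cartilage, was among the 9 from 1 UMI (10.3 against 0.78 CPM), which lay outside the cluster of 22 nuclei.

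The signalling and resorption lists stood out less. Of 22 BMP, hedgehog, parathyroid hormone and RANK genes, 13 had a UMI and 3 were at least 2-fold higher by CPM plus 5. Pth1r, the receptor of parathyroid hormone, was at 359 against 20.5 CPM, while the BMP receptor Bmpr2 (523 against 477 CPM) and Smad1 (297 against 186 CPM) were not past 2-fold. Of 9 osteoclast genes, 3 had a UMI and 1 was past 2-fold, Ctsk, which was at 92.3 against 24.1 CPM and is also made by fibroblasts. Nfatc1 was at 71.8 against 81.4 CPM and Acp5, from 1 UMI, at 10.3 against 3.30 CPM, which is under 2-fold with 5 added. Of 8 partners of Ptprz1, 4 had a UMI and 2 were past 2-fold. Its ligand Ptn was at 30.8 against 49.8 CPM, Tnc (tenascin C) at 205 against 34.8 CPM and Nrcam, from 3 UMIs, at 30.8 against 14.3 CPM, under 2-fold with 5 added. The other gene past 2-fold was Mdk, the second ligand, at 20.5 against 3.76 CPM from 2 UMIs.

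Markers of other tissues were read in the cluster as well. Cardiomyocyte markers summed to 682 CPM in it, against 8092 CPM over all WT nuclei, with Tnnc1 at 0. Fibroblast markers, of which 8 of 9 had a UMI, summed to 13639 CPM from 480 UMIs, against 5100 CPM over all WT nuclei. This list holds Col1a1, which gave 442 of the 480 UMIs, with 217 in 1 nucleus. Macrophage markers gave 33 UMIs, of which 25 lay in 1 nucleus, with Cd163 and Csf1r at 0. Of 6 fast skeletal muscle markers 1 had a UMI (4 UMIs in all), and of 9 bone marrow precursor markers 2 did (3 UMIs in 1 nucleus). Their part in the member values was not tested.

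Outside the bone or cartilage-like cluster, Runx2 and Alpl were higher in fibroblast-like nuclei of both BMD and DMD than of WT, and Sox9 was not. These nuclei numbered 3566 in WT, 1663 in BMD and 2329 in DMD. Of the 3 members with at least 50 UMIs there, 2 were past 2-fold in BMD against WT, where 4.58% of all tested genes were, and the same 2 in DMD against WT, where 2.94% were. Both comparisons share the WT library.

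Runx2 in fibroblast-like nuclei had 264, 493 and 510 UMIs in WT, BMD and DMD, or 53.9 CPM (47.6 to 60.8), 168 CPM (153 to 183) and 146 CPM (133 to 159). The log2 ratio over WT was 1.64 (1.42 to 1.86) in BMD and 1.44 (1.22 to 1.66) in DMD. The intervals of both dystrophic libraries lay above that of WT, and DMD was lower than BMD by a log2 ratio of -0.20 (-0.38 to -0.02). Without the 11 nuclei with Ibsp, the DMD ratio was 1.35 (1.14 to 1.58).

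The difference was spread over many nuclei. A Runx2 UMI was found in 5.89%, 19.5% and 15.9% of fibroblast-like nuclei, and in 2.47%, 7.04% and 6.57% after thinning each nucleus to 500 UMIs. Cardiomyocyte-like nuclei, thinned the same way, held it in 0.20%, 0.65% and 1.55%. Expected free RNA was 4.22 CPM of Runx2 in DMD fibroblast-like nuclei. At least 3 Runx2 UMIs were found in 7 WT, 42 BMD and 18 DMD nuclei.

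Alpl, the mineralising phosphatase, had 72, 119 and 192 UMIs in fibroblast-like nuclei, or 14.7 CPM (11.5 to 18.5), 40.5 CPM (33.5 to 48.5) and 54.9 CPM (47.4 to 63.3). The log2 ratio was 1.46 (1.03 to 1.90) in BMD and 1.90 (1.50 to 2.31) in DMD. Unlike Runx2, Alpl summed over these nuclei was higher in DMD than in BMD, by 0.44 (0.10 to 0.78). For both genes, the order of DMD and BMD was not the same in each of the finer clusters described below. No Alpl UMI was in the 11 fibroblast-like nuclei with Ibsp, whose removal left the DMD count at 192.

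Sox9 had 244, 123 and 152 UMIs in fibroblast-like nuclei, at 49.8 CPM (43.8 to 56.5), 41.8 CPM (34.8 to 49.9) and 43.5 CPM (36.8 to 51.0). Its log2 ratio was -0.25 (-0.58 to 0.07) in BMD and -0.20 (-0.50 to 0.10) in DMD, so the intervals of all 3 libraries overlapped. Fibroblast-like nuclei held most of the Sox9 UMIs in every library, with 34, 28 and 12 UMIs in cardiomyocyte-like nuclei as the next named class. Ibsp, Bglap, Dmp1, Sp7 and Ptprz1 each had at most 13 UMIs in fibroblast-like nuclei of any library.

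**Figure D3:**
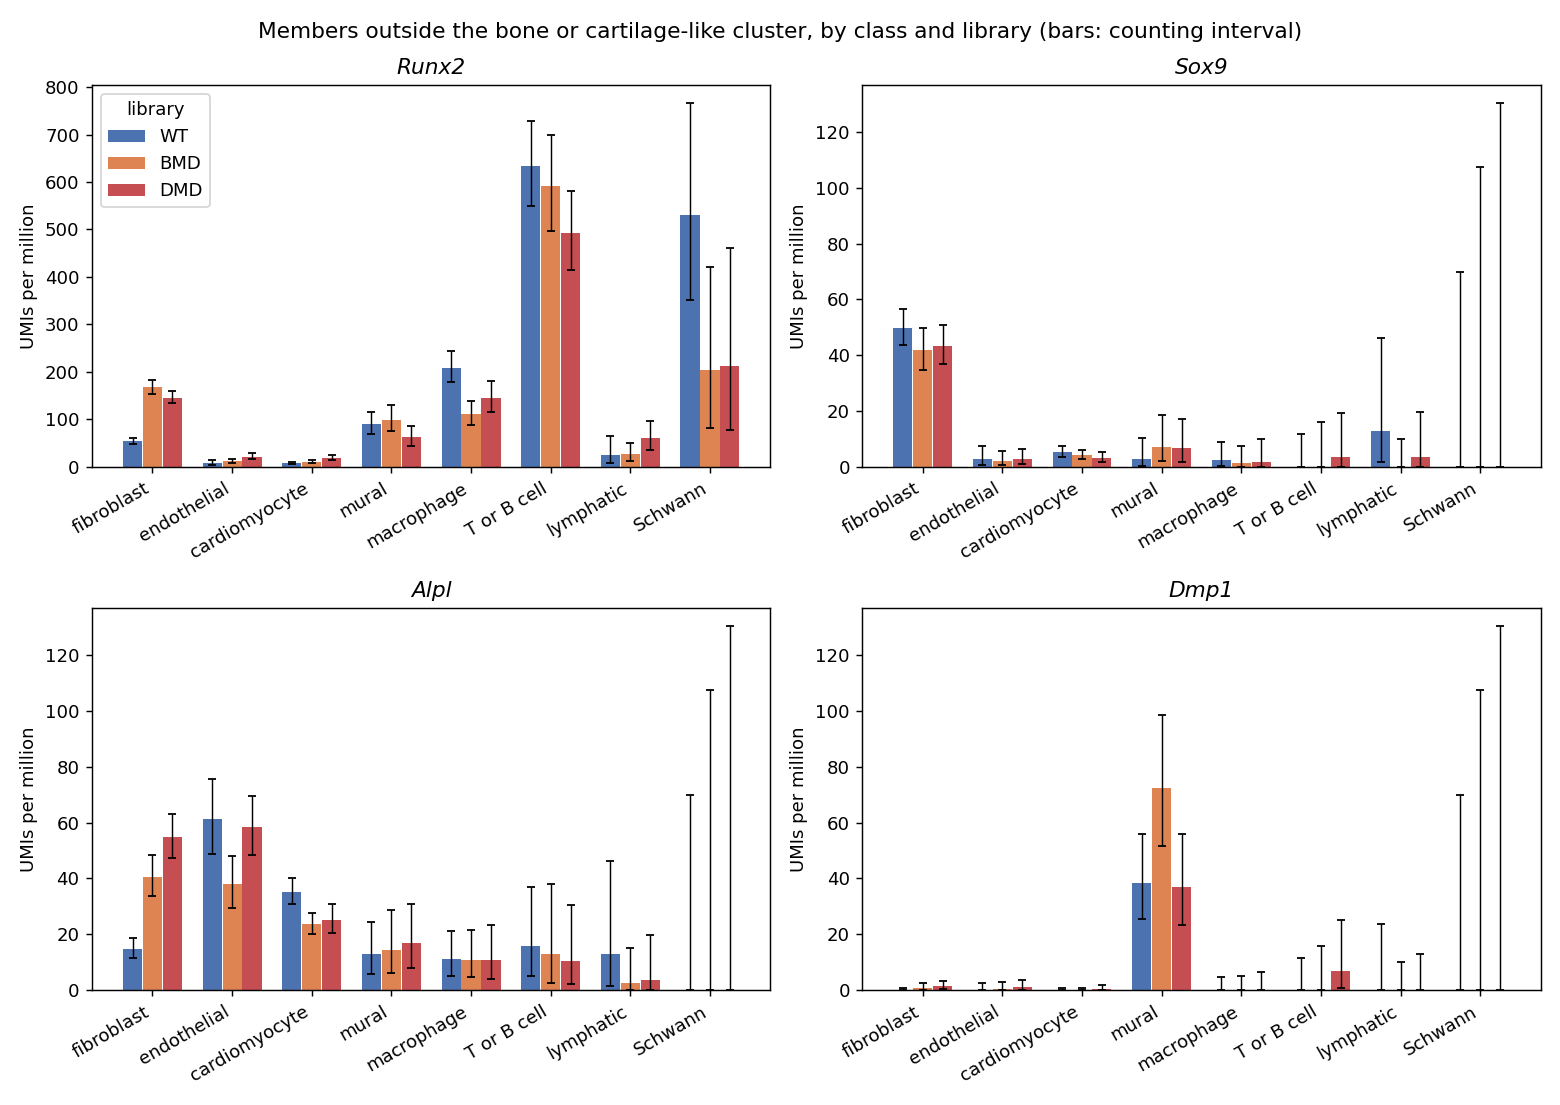
CPM of Runx2, Sox9, Alpl and Dmp1 (y axes, linear from 0, each with its own range) in 8 classes of nuclei outside the bone or cartilage-like cluster, for WT, BMD and DMD, with bars for the 95% counting interval (mural: pericyte or smooth muscle). Runx2 and Alpl are higher in BMD and DMD than in WT among fibroblasts, Sox9 is mainly in fibroblasts, and Dmp1 in mural nuclei.

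A finer division gave 3 fibroblast-like clusters, and the higher Runx2 and Alpl levels were present in each. In the cluster led by Ltbp2 and Tnc, genes of stressed or matrix-building fibroblasts, Runx2 had 71.1, 202 and 148 CPM, with log2 ratios of 1.51 and 1.05. In the cluster led by Bmper and Aox3 it had 29.3, 92.5 and 141 CPM, with log2 ratios of 1.66 and 2.27. In the cluster led by RGD1563354 and Crispld2 it had 60.7, 112 and 136 CPM, with log2 ratios of 0.88 and 1.16. This cluster and the Bmper and Aox3 cluster came from dividing again the cluster that held the most nuclei with Ibsp. All 6 intervals lay above 0, but BMD had its highest level in the first cluster and DMD had similar levels in all 3. Runx2 was thus lower in DMD than in BMD in the first cluster alone.

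Alpl log2 ratios in the same 3 clusters were 1.03, 2.38 and 1.53 in BMD and 1.83, 2.02 and 1.18 in DMD. All 6 intervals lay above 0. Alpl was higher in DMD than in BMD in the first cluster alone (69.4 against 39.7 CPM, intervals apart). In the others it was lower, at 30.2 against 38.8 CPM and 39.0 against 49.7 CPM, with intervals that overlapped. Sox9 log2 ratios were -0.25, 0.21 and -1.48 in BMD and -0.25, -0.12 and -0.31 in DMD. Only the BMD value in the third cluster, from 7 UMIs, had an interval that left out 0 (-2.86 to -0.35). The Ltbp2 and Tnc cluster held 1152 WT, 921 BMD and 1077 DMD nuclei, a larger part of the BMD and DMD fibroblasts than of the WT ones.

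**Figure D4:**
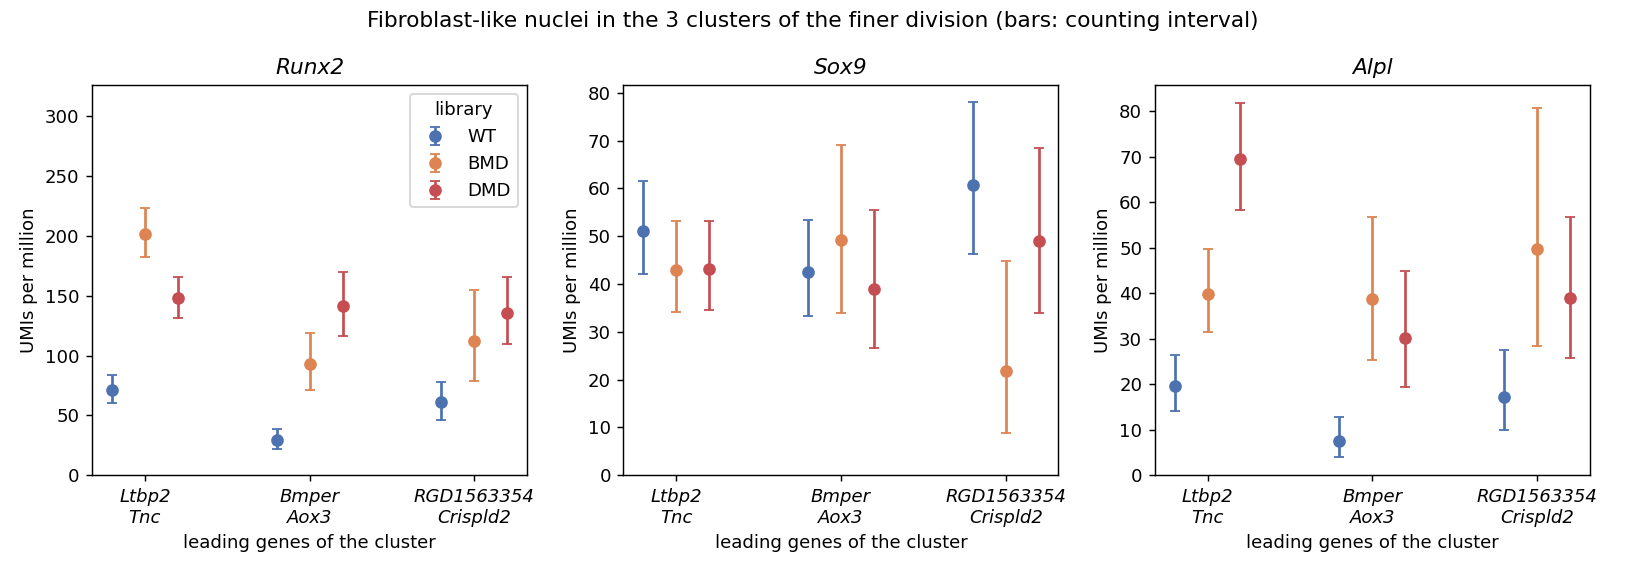
CPM of Runx2, Sox9 and Alpl (y axes, linear from 0) in the 3 fibroblast-like clusters of a finer division (x axes, named by their leading genes) for WT, BMD and DMD, with bars for the 95% counting interval. WT is the lowest of the 3 libraries in each cluster for Runx2 and for Alpl, whereas the Sox9 intervals mostly overlap.

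Few fibroblast-like nuclei held both Runx2 and Alpl, and both genes were sparse there. Alpl was found in 2.38% of the WT nuclei with Runx2 and 1.40% of those without, in 7.69% and 3.36% in BMD, and in 6.47% and 4.19% in DMD. The share was thus higher with Runx2 in each library. The intervals were apart in BMD (5.04% to 11.1% against 2.46% to 4.47%) and overlapped in WT and DMD. Nuclei with Runx2 were deeper, with medians of 1631 against 1192 UMIs in WT, 2014 against 1517.5 in BMD and 1502 against 1303.5 in DMD. The part of depth in these shares was not tested.

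In cardiomyocyte-like nuclei, Runx2 had 50, 74 and 77 UMIs, or 7.81 CPM (5.80 to 10.3), 11.0 CPM (8.67 to 13.9) and 19.5 CPM (15.4 to 24.3). The log2 ratio was 0.50 (-0.04 to 1.05) in BMD and 1.32 (0.79 to 1.86) in DMD, and DMD was higher than BMD by 0.82 (0.34 to 1.30). None of the 3 members with at least 50 UMIs was past 2-fold in BMD, where 5.05% of genes were, and 1 of 2 was in DMD, where 6.51% were. In the 2 finer cardiomyocyte-like clusters the DMD ratio was 1.15 (0.44 to 1.84) and 1.38 (0.27 to 2.68). Expected free RNA was 2.96 CPM in DMD.

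Alpl went the other way in cardiomyocyte-like nuclei, with 226, 159 and 100 UMIs, or 35.3, 23.7 and 25.3 CPM. The log2 ratio was -0.57 (-0.88 to -0.28) in BMD and -0.48 (-0.84 to -0.14) in DMD. In the 2 finer cardiomyocyte-like clusters the BMD ratio was -0.24 (-0.61 to 0.13) and -0.72 (-1.38 to -0.03), and the DMD ratio -0.55 (-1.03 to -0.09) and -0.27 (-0.97 to 0.46). All 4 were below 0, but 1 in each library was inside the counting interval. The first cluster, led by Lsamp and Angpt1, held 1646, 686 and 480 nuclei and the other 390, 852 and 607, so the libraries filled them differently.

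In endothelial-like nuclei, Alpl had 84, 70 and 122 UMIs, at 61.2, 37.9 and 58.3 CPM, with log2 ratios of -0.69 (-1.17 to -0.22) in BMD and -0.07 (-0.48 to 0.35) in DMD. Runx2 was low there, with 11, 21 and 45 UMIs. Its DMD ratio was 1.42 (0.45 to 2.53), but 15 of the 45 UMIs lay in 1 nucleus that also held Ibsp, and without the nuclei with Ibsp the ratio was 0.80 (-0.25 to 1.95). The 1 member with at least 50 UMIs in BMD against WT was not past 2-fold, where 2.40% of genes were, and 1 of 2 was in DMD against WT, where 2.08% were.

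Pericyte or smooth muscle-like nuclei were the main place of Dmp1 outside the bone or cartilage-like cluster. Dmp1 had 27, 40 and 22 UMIs in WT, BMD and DMD, or 38.5 CPM (25.4 to 56.1), 72.4 CPM (51.7 to 98.6) and 37.0 CPM (23.2 to 56.0). The log2 ratio was 0.91 (0.17 to 1.67) in BMD and -0.06 (-0.94 to 0.81) in DMD. All other classes outside the cluster together gave 3, 4 and 17 UMIs in WT, BMD and DMD.

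Within this class, 3 of 5 smooth muscle genes were higher in nuclei with Dmp1 in every library. Myh11, the smooth muscle myosin, stood at 4096 CPM in the 19 WT nuclei with Dmp1 and at 196 CPM in the 701 without. In BMD it was 3576 CPM in 30 nuclei against 665 CPM, and in DMD 3152 CPM in 18 nuclei against 539 CPM. Acta2, smooth muscle actin, was at 540, 710 and 661 CPM with Dmp1 and at 41.3, 222 and 114 CPM without. Mylk, the kinase of smooth muscle myosin, was at 1080, 995 and 1051 CPM with Dmp1 and at 535, 598 and 590 CPM without. The CPM intervals, which count UMIs and not nuclei, were apart in every library for these 3 genes. The levels of Myh11 and Acta2 rest on part of the nuclei with Dmp1, since Myh11 was found in 10 of 19, 11 of 30 and 5 of 18 and Acta2 in 6, 8 and 5. For the share of nuclei with a UMI, the intervals overlapped for Mylk in every library and for Myh11 in DMD. Tagln was at 180, 47.4 and 156 CPM with Dmp1 and at 16.2, 90.2 and 33.4 CPM without, with intervals apart in WT alone, and Cnn1 had 0, 0 and 3 UMIs with Dmp1. Rgs5, a pericyte gene, was at 1846, 2084 and 2334 CPM with Dmp1 and at 2418, 2165 and 2600 CPM without, with intervals that overlapped in BMD, DMD and WT. Abcc9 was at 2341, 4334 and 3813 CPM with Dmp1 and at 5515, 4914 and 5500 CPM without. It was lower with intervals apart in WT and DMD. Pdgfrb was lower with intervals apart in WT alone (1035 against 1767 CPM). Cspg4 was higher with intervals apart in DMD alone (506 against 223 CPM). The intervals of Kcnj8 and Notch3 overlapped in every library. Dmp1 was therefore counted in a small share of mural nuclei of each genotype (2.64%, 6.40% and 3.32%), and the summed Myh11, Acta2 and Mylk levels of these nuclei were higher than those of the rest.

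**Figure D5:**
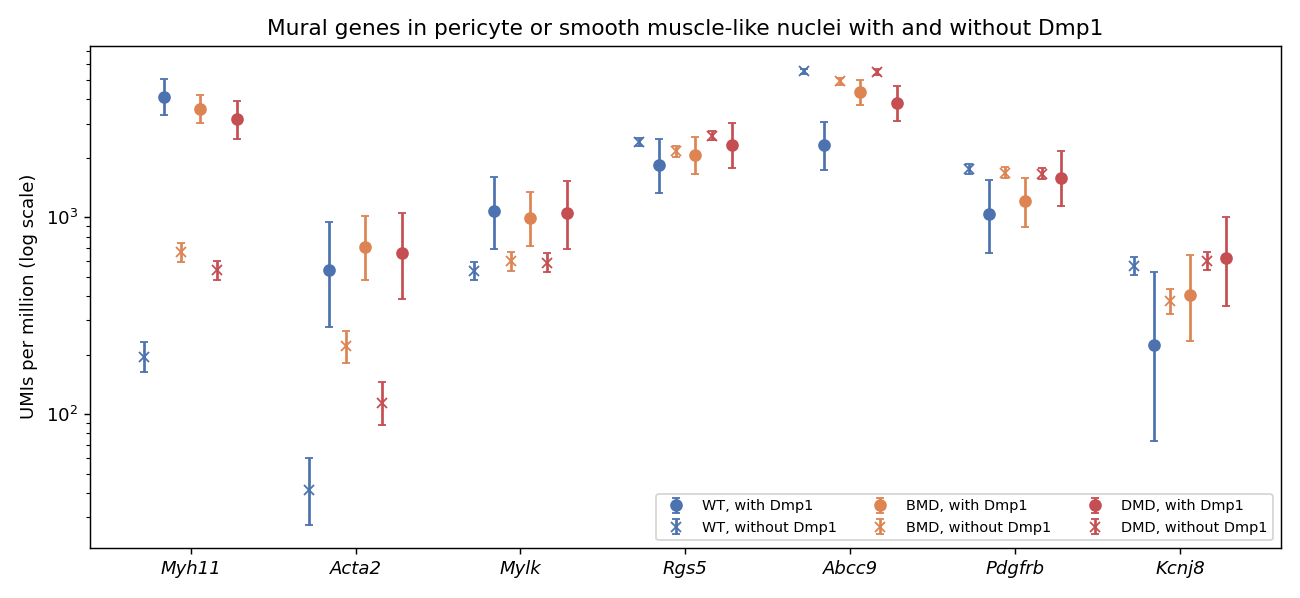
CPM on a log scale of 7 mural genes (x axis) in pericyte or smooth muscle-like nuclei with Dmp1 (filled circles) and without it (crosses) for WT, BMD and DMD, with bars for the 95% counting interval. Myh11, Acta2 and Mylk are higher with Dmp1 in all 3 libraries, and Rgs5 is not. Abcc9 is lower with Dmp1, with intervals apart in WT and DMD. Tagln, Cnn1, Cspg4 and Notch3 were also read and are not plotted. The smooth muscle genes Tagln and Cnn1 were not higher with Dmp1 in every library.

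Runx2 in the same class had 63, 55 and 37 UMIs, at 89.9 CPM (69.1 to 115), 99.6 CPM (75.0 to 130) and 62.2 CPM (43.8 to 85.7). The log2 ratios were 0.15 (-0.40 to 0.69) and -0.53 (-1.16 to 0.08). Of the 63 WT UMIs, 19 came from 1 nucleus marked as a doublet, and the BMD ratio was 0.93 without doublets.

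Among the 8 classes plotted, lymphocytes had the highest Runx2 level outside the bone or cartilage-like cluster in each library. T or B cell-like nuclei had 201, 137 and 142 UMIs in WT, BMD and DMD, or 634 CPM (550 to 728), 592 CPM (497 to 700) and 493 CPM (415 to 581). A finer division placed 201, 134 and 141 UMIs of Runx2 in the cluster led by Skap1 and Camk4, genes of T cells. The log2 ratios were -0.10 (-0.42 to 0.22) and -0.37 (-0.69 to -0.05), not past 2-fold, where 5.67% of genes were in BMD and 3.48% in DMD.

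Macrophage-like nuclei had 168, 82 and 81 Runx2 UMIs, at 209 CPM (179 to 243), 112 CPM (88.7 to 138) and 145 CPM (115 to 180). The log2 ratios were -0.91 (-1.31 to -0.52) and -0.53 (-0.93 to -0.14), also not past 2-fold, where 5.61% and 5.74% of genes were. The finer division split this class. The cluster led by Spp1 and Wdfy4 had 347, 298 and 333 CPM, with log2 ratios of -0.22 (-0.67 to 0.21) and -0.06 (-0.51 to 0.38), and held 379, 160 and 159 nuclei. By its markers this cluster was named monocyte-like, with 5 monocyte and 4 macrophage markers raised. Flt3 and Ciita were also among its leading genes. No list of dendritic cell markers was read, so the name holds among the listed classes only. The cluster led by F13a1 and Cd163, genes of resident macrophages, had 48.1, 36.8 and 56.0 CPM. Within each of these 2 clusters the difference between libraries was inside the counting interval.

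Schwann-like nuclei, the glia of cardiac nerves, were the main place of Ptprz1 outside the bone or cartilage-like cluster. Ptprz1 had 25, 24 and 18 UMIs in WT, BMD and DMD, or 473 CPM (306 to 699), 699 CPM (448 to 1041) and 636 CPM (377 to 1005). It was found in 35.1% of the 57 Schwann-like nuclei of WT, 48.3% of the 29 in BMD and 54.5% of the 22 in DMD, and the intervals overlapped. Runx2 in these nuclei had 28, 7 and 6 UMIs, at 530, 204 and 212 CPM. The log2 ratios of Runx2 were -1.38 (-2.82 to -0.15) and -1.32 (-2.88 to -0.02), from counts too few for the 2-fold comparison over all genes.

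In WT, the order of Runx2 levels was T or B cell-like, Schwann-like (530 CPM, 352 to 766), macrophage-like, pericyte or smooth muscle-like, fibroblast-like, lymphatic-like (25.7 CPM, 6.99 to 65.7), endothelial-like (8.01 CPM) and cardiomyocyte-like (7.81 CPM). The intervals of the first pair overlapped, as did those of fibroblast-like and lymphatic-like nuclei. The lymphatic-like interval, from 4 UMIs, also overlapped those of endothelial-like and cardiomyocyte-like nuclei, which overlapped each other. In BMD, fibroblast-like nuclei stood above macrophage-like nuclei (168 against 112 CPM, intervals apart). In DMD the intervals of these 2 classes overlapped (146 and 145 CPM). Unnamed clusters lay in between, with 100, 152 and 152 CPM of Runx2 in cluster 10 and 31.3, 50.3 and 27.0 CPM in cluster 8, both rich in doublets. In cluster 5 of DMD, 21 of the 28 Runx2 UMIs came from 1 nucleus with Ibsp.

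The 3 members with enough counts were compared with all 11352 genes over 23 class and library points by the Pearson correlation of log2(CPM + 5). The points share libraries and classes, so the values are a description. The genes most like Runx2 were Mycbp2 (0.90), Ago4 (0.86) and Runx1 (0.86), those most like Sox9 were Aldh1a2, Slc44a3 and Ndst3 (each 0.93), and those most like Alpl were Tmem82 (0.81), Smad7 (0.77) and Ehhadh (0.74).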

How the data were processed

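Single-nucleus RNA sequencing covered 1 heart library per genotype. The deposited values are raw counts of UMIs per gene and barcode, which the authors made with Cell Ranger (rn6 per the labels) for every barcode, empty ones included. The labels and the methods give a 3′ v3.1 kit, while the study's results name a 5′ technology. Whether introns were counted is not given in the sources used here. The file listed for WT is an aggregate of the 3 libraries and keeps 76.1% of the UMIs of BMD and 92.9% of those of DMD. WT was read from its barcodes with suffix 3, whose suffix was taken as WT because the other suffixes matched the BMD and DMD barcodes exactly. BMD and DMD were read from their own files. Header versions differ (Cell Ranger 6.0.1 for the aggregate, 4 for the others), so the counting software and the genotype cannot be told apart for WT.

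The members, gene lists and markers were chosen with earlier results of these data known. Barcodes with at least 500 UMIs were taken as nuclei (10069, 6898 and 8212; the methods give 9964, 6810 and 7890). No doublet or mitochondrial filter was applied. Libraries were clustered together without the 8 members (10000 per nucleus, log, 2000 variable genes, 30 components, 15 neighbours, Leiden 0.5; scanpy 1.11.5, igraph 0.11.9). Mitochondrial genes, some sex-linked genes and 8 cardiomyocyte genes were left out of the clustering as well. The cluster that held the most nuclei with Ibsp was then divided again in the same way. A class name needed 3 markers at least 2-fold above all other nuclei, and clusters led by markers of another class or by mitochondrial genes stayed unnamed. UMIs were summed per class and library and scaled to CPM of the class total, with exact Poisson intervals. Shares have exact Clopper-Pearson intervals, and log2 ratios have intervals from the exact binomial split of the 2 counts (scipy 1.17.1). Against 0, a floor of 3 counts per library was used. A ratio was compared with all genes of at least 50 UMIs over both libraries, and the share past 2-fold is given. The counting and ratio functions were tested on simulated data. Free RNA was taken from barcodes with at most 50 UMIs.

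Genes named beside the members are the 3 with the most UMIs in nuclei with Ibsp in each list, the 10 with the highest ratio of CPM plus 5 in these nuclei, and the 3 most alike over classes, except 1 gene that is not reported here. Genes of a member's class or lead genes of clusters are named to identify nuclei, and Mmp16, Col10a1 and Fgf23 were singled out after their values were seen. Alternatives were at least 1000 UMIs, the number of nuclei in the methods, removal of Scrublet doublets or of nuclei over 5% mitochondrial UMIs, Leiden 1.0, members kept in the clustering, TMM scaling (edgeR 4.0.16), means over nuclei, all nuclei, free RNA subtracted, counts from the aggregate, thinning to 500 UMIs and at least 2 UMIs of Ibsp. A single division of the clusters and the removal of nuclei with Ibsp were added after the data were seen. Promoters came from RefSeq (GRCr8), a build other than that of the counts, and no coordinate of the count files was used.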

Additional observations from a re-analysis of the deposited data

Results flagged for a closer look

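RNA of 2 members was counted in barcodes too small to be taken as nuclei. In DMD barcodes with over 50 and under 500 UMIs, Ibsp stood at 25.8 CPM and Bglap at 19.0 CPM, while both were at 0 in the same barcodes of WT and BMD.

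The ratio over WT of Alpl and Runx2 had opposite signs, or sizes whose counting intervals did not meet, in different classes of nuclei. For Alpl the log2 ratio of BMD over WT was 1.46 in fibroblast-like nuclei, -0.69 in endothelial-like nuclei and -0.57 in cardiomyocyte-like nuclei, and that of DMD over WT was 1.90 in fibroblast-like and -0.48 in cardiomyocyte-like nuclei. For Runx2 the BMD ratio was 1.64 in fibroblast-like and -0.91 in macrophage-like nuclei. The DMD ratio of Runx2 was 1.44 in fibroblast-like, 1.42 in endothelial-like and 1.32 in cardiomyocyte-like nuclei, against -0.53 in macrophage-like and -0.37 in T or B cell-like nuclei. These differences between classes were not tested, since each class has 1 library per genotype. The endothelial Runx2 value in DMD was 0.80 (-0.25 to 1.95) without the nuclei with Ibsp, an interval that meets the macrophage one, and the macrophage value lay inside the counting interval within the finer clusters.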

How the results depend on the processing

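No paired analysis was possible because each genotype has 1 library, and for the same reason no replicate could be left out. Of the 95 values of the main results under alternatives, 85 kept their direction and stayed inside the counting interval. Summing all nuclei in place of one class mixes cell types by construction. It gave log2 ratios of 0.30 (BMD) and 0.86 (DMD) for Runx2, -0.091 and 0.44 for Alpl, and -0.65 (BMD) for Sox9, so Alpl in BMD changed sign against fibroblast-like nuclei. The same sums changed the sign of Alpl in cardiomyocyte-like nuclei of DMD (0.44) and of Runx2 in macrophage-like (0.30 in BMD, 0.86 in DMD) and T or B cell-like nuclei (0.86 in DMD). The mean over nuclei gave 1.92 for Alpl in BMD fibroblast-like nuclei. The DMD share of nuclei with Ibsp was 0.256% at 2 or more UMIs and 0.378% after thinning to 500 UMIs, both stricter by construction. Of the nuclei with at least 2 Ibsp UMIs, 95.2% held Runx2, against 27 of all 54 nuclei with Ibsp. With no second division, the cluster named bone or cartilage-like held 59 WT, 79 BMD and 286 DMD nuclei. With counts from the aggregate, the Runx2 ratio in fibroblast-like nuclei was 1.57 in BMD and 1.48 in DMD. Runx2 in pericyte or smooth muscle-like nuclei of BMD ranged from -0.69 to 0.93, and Dmp1 there from 0.75 to 1.82, with the highest value at 1000 UMIs or more. The cause was not tested. Depth limits Sp7 (3 UMIs), and a single UMI of Ibsp or Bglap in DMD cannot be told apart from free RNA.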

Other observations

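One further bone hormone, Fgf23, which osteocytes release and which acts on phosphate in the kidney, was singled out after its values were seen. It had 0 UMIs in the nuclei with Ibsp. Its counts lay in endothelial-like nuclei, with 6 UMIs in 4 WT nuclei (4.37 CPM), 70 UMIs in 19 BMD nuclei (37.9 CPM) and 45 UMIs in 19 DMD nuclei (21.5 CPM). The log2 ratio over WT was 3.12 (1.92 to 4.61) in BMD and 2.30 (1.07 to 3.82) in DMD, with counting error only and up to 13 UMIs in 1 nucleus.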
